A study of Homo sapiens with 2 samples.

Results

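The deposited acRIP-seq table held 3 peaks inside 18S rRNA genes, out of 647 listed peaks on 490 genes. They were selected by the gene names FP236383.2 and FP236383.3 among listed peaks, and a peak is listed only where the pull-down exceeded the input, so their enrichment was part of the choice and is given as a description. In acRIP-seq, RNA fragments that carry N4-acetylcytosine (ac4C) are captured with an antibody and compared with an input sample of the same RNA. The experiment compared A549, a human lung adenocarcinoma cell line, without an edit (WT, labelled Control) with an A549 line in which the acetyltransferase gene NAT10 was knocked out with CRISPR/Cas9 (NAT10-KO), with 1 library each. The NAT10-KO line was grown from a single cell and is 1 homozygous clone, so a property of the clone and an effect of the knockout cannot be told apart. The rRNA was depleted after the pull-down, before cDNA synthesis.

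The 18S rRNA is the RNA core of the small ribosomal subunit, and it is cut from a long precursor that also yields the 5.8S and 28S rRNAs. NAT10 is the enzyme that acetylates cytidines of 18S rRNA, and it was known as an rRNA and tRNA acetyltransferase before ac4C was described in mRNA. In human 18S rRNA ac4C is known in the head domain of the subunit and near the 3' end of the molecule, close to the decoding centre. The precursor genes are repeated in many near-identical copies on the short arms of several chromosomes, and a short read from 18S rRNA fits several copies equally well.

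All 3 peaks lay within an 18S gene of the RefSeq annotation of GRCh38.p14 and had 1 block each, without a gap. FP236383.2 (ENSG00000280614, annotated as lincRNA) carried a pair of peaks, both inside RNA18SN3 (chromosome 21, 8392666 to 8394534). The first, called peak 1 here, ran from 8393419 to 8393835 on chromosome 21, which is base 754 to base 1170 of the 1869 bases of 18S. The second, peak 2, ran from 8393895 to 8394044, which is base 1230 to base 1379. Between them lay 59 bases outside any peak. Together they covered 567 bases, or 30.3% of RNA18SN3. FP236383.3 (ENSG00000281181, also lincRNA) had 1 peak from 8437659 to 8437986, inside RNA18SN1 (8436876 to 8438744), which is base 784 to base 1111 of that copy.

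The FP236383.3 peak therefore occupied the same stretch of the 18S gene, in another copy, as peak 1 of FP236383.2. By position in the gene, 100% of its 328 bases fell within peak 1, and they made up 78.7% of peak 1. No position was shared with peak 2. The first 753 bases of the gene and the last 490 bases lay outside the peaks in both copies. The acetylated cytidine near the 3' end of 18S rRNA was thus not under a listed peak, since peak 2 ended 490 bases before the end of the gene. The peaks are listed as exons of the lincRNA genes, and whether those exons reach the bases outside the peaks was not checked. A lack of ac4C signal at these bases is therefore not concluded. In the usual numbering of human 18S rRNA, the acetylated cytidine of the head domain falls within peak 2 and outside the other peaks. That placement is general knowledge and was not checked on sequence.

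**Figure D1:**
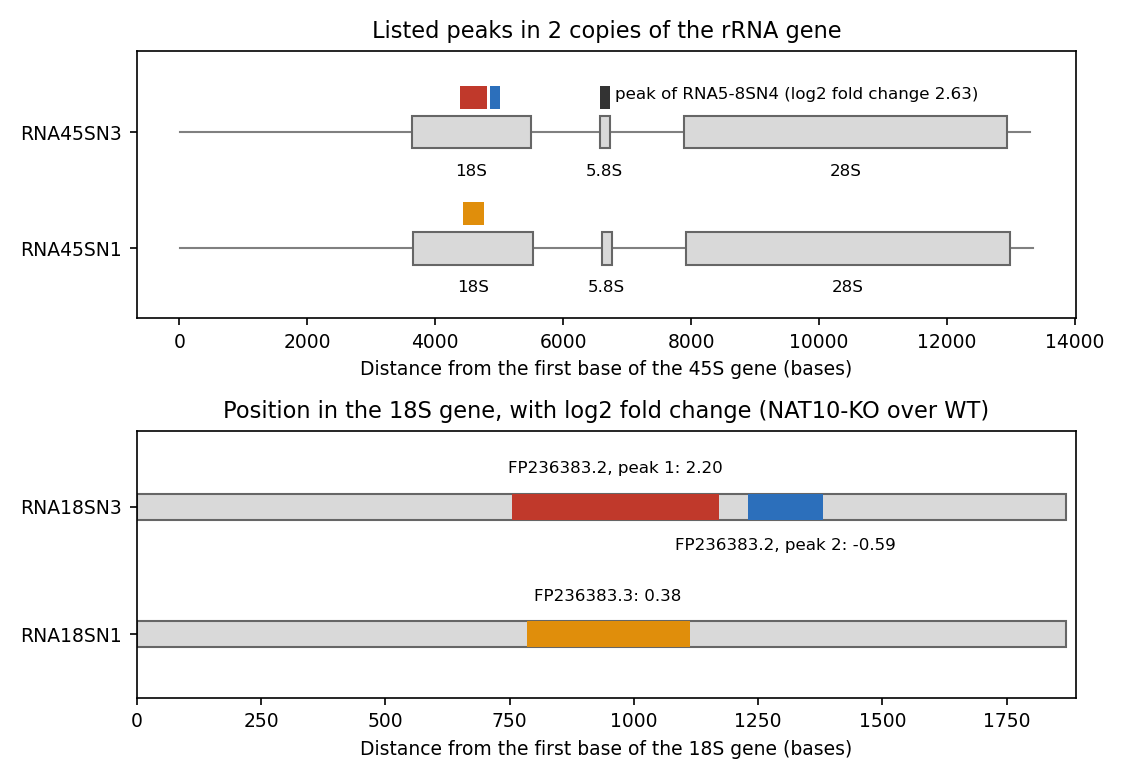
Position of the listed peaks in 2 copies of the rRNA precursor gene (upper panel, bases from the start of the precursor gene) and in the 18S genes of these copies (lower panel, bases from the start of the 18S gene). Grey boxes are rRNA genes, coloured boxes are peaks, and the printed values are log2 fold changes of NAT10-KO over WT; the FP236383.3 peak sits at the same 18S positions as peak 1 of FP236383.2, with 0.38 against 2.20.

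The strand given for the peaks was not that of 18S rRNA. All 3 were listed on the minus strand, the strand of the lincRNA genes, whereas the 18S, 5.8S and 28S genes follow each other in ascending order in both copies, as they do on the plus strand. The library kit is named in the labels, but whether reads were counted by strand is not given in the sources used here. Elsewhere in the table, 6 pairs of single-block peaks overlapped on opposite strands. Both peaks of a pair had the same sign of log2 fold change in all 6 pairs. In 3 of them the values differed by less than 0.05, and the largest gap was 0.77. Since the use of strand is not given, reads from 18S rRNA and from an antisense transcript cannot be told apart in the 18S peaks. No peak was listed under the name of an 18S, 28S or precursor gene.

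Fold enrichment over input, which the table gives once for both libraries, was similar for both peaks of FP236383.2. It was 3.88 for peak 1 and 4.09 for peak 2. These values stood at percentiles 75.6 and 77.5 of all listed peaks, whose median was 2.24. The FP236383.3 peak had a fold enrichment of 1.44, at percentile 11.0. Peak 1 was thus 2.69-fold more enriched than the peak at the same positions of the other copy. The placement of reads that fit several copies is not given, so this is not read as a difference between the copies. The reads behind these values were not used here, so no interval can be given.

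The deposited p of enrichment was, like the ratio, tied to the choice of the peaks and is given as a description. The log10 p of enrichment was -7690 for peak 1 and -6990 for peak 2, the fifth and the sixth lowest in the table. The 4 peaks with lower values were all mitochondrial, namely both peaks of MT-RNR2, the peak of MT-RNR1 and MT-ND2. Among the 28 other peaks within 1.1-fold of the enrichment of peak 1, the median log10 p was -26.1. For peak 2 there were also 28 such peaks, with a median of -45.0. The FP236383.3 peak reached -554 against a median of -7.8 over 94 peaks of similar enrichment. At a given ratio the p also depends on the number of reads, so a lower p is not read as stronger enrichment. The depth of each library and the reads under each peak are unknown here.

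The log2 fold change of NAT10-KO over WT differed in sign between the peaks of FP236383.2. It was 2.20 for peak 1, or 4.59-fold higher in NAT10-KO, and -0.59 for peak 2, or 1.51-fold lower. Whether the deposited change is corrected for the input was not checked, so it is not read as a change of ac4C alone. General knowledge places the acetylated cytidine of the head domain within peak 2, which was not checked on sequence. Whether that cytidine bears on the change of peak 2 was not tested. Both peaks lie within the coordinates of the same 18S gene, 59 bases apart, and their log2 fold changes were 2.79 apart. The FP236383.3 peak had a log2 fold change of 0.38, or 1.30-fold higher in NAT10-KO. It differed by 1.82 on the log2 scale from peak 1, whose 18S positions it shares. With the placement of shared reads unknown, this is likewise not read as a difference between the copies.

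Past a log2 fold change of 1, 1 of the 3 peaks was higher in NAT10-KO, against 17.5% of all listed peaks. None of the 3 was past -1, against 18.7% of all listed peaks. A set of 3 peaks is too small to set these counts apart from the table as a whole. The median log2 fold change was 0.38 over the 18S loci and 0.05 over all 647 peaks. Peak 1 stood at percentile 94.7 of log2 fold change, with 34 peaks above it. Peak 2 stood at percentile 25.0 and the FP236383.3 peak at percentile 64.4.

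**Figure D2:**
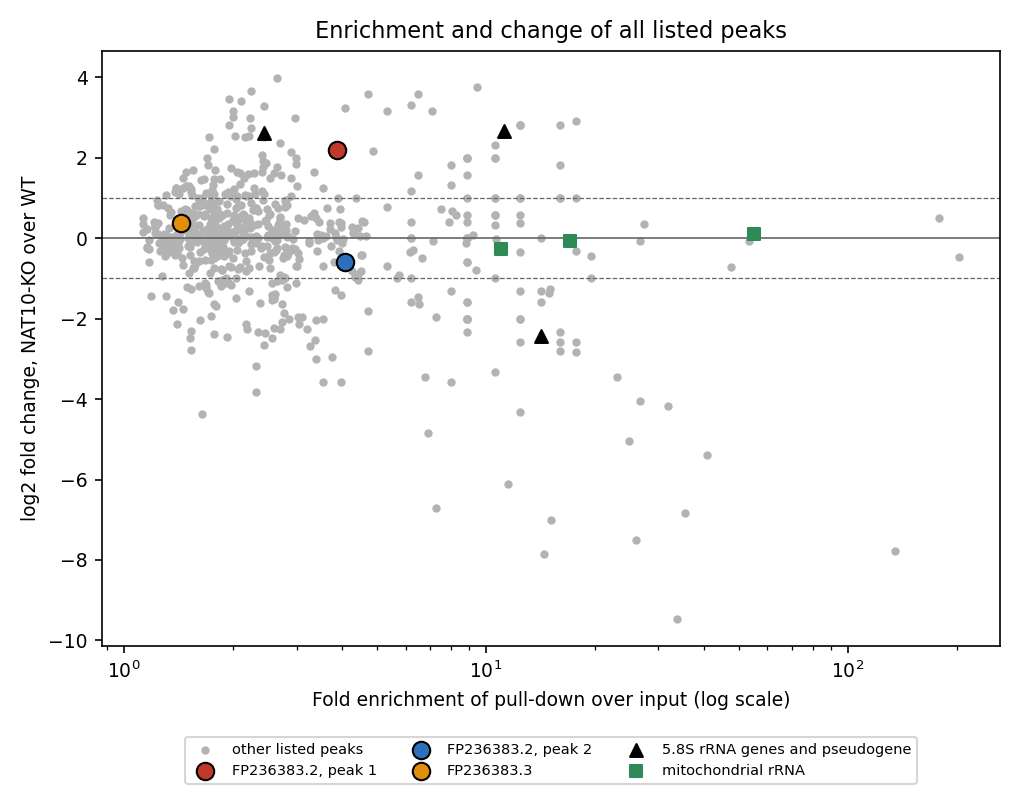
Fold enrichment over input (horizontal, log scale) against log2 fold change of NAT10-KO over WT (vertical) for all 647 listed peaks, 1 point per peak, with dashed lines at log2 fold changes of -1 and 1. The peaks of FP236383.2 have close enrichment (3.88 and 4.09) and opposite signs of change, and FP236383.3 sits at a low enrichment of 1.44.

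The deposited p of the difference compares 2 libraries and carries no spread between replicates. At a given change this p also depends on the number of reads, which is unknown here. Its log10 was -434 for peak 1, the lowest value in the table, which 3 peaks share and which is therefore read as a floor. It was -145 for peak 2 and -98.9 for the FP236383.3 peak, the seventh and the tenth lowest. Of the 14 peaks with a log10 p under -50, 9 were mitochondrial and 4 lay in 18S or 5.8S genes. The mitochondrial ones had log2 fold changes from -0.60 for MT-ND6 to 0.10 for MT-RNR1. Peak 1 and the 5.8S peak of the same precursor were the only members of these 14 past a log2 fold change of 1. Of the 34 peaks with a higher log2 fold change than peak 1, 1 had a log10 p under -50, and their median was -2.22.

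**Figure D3:**
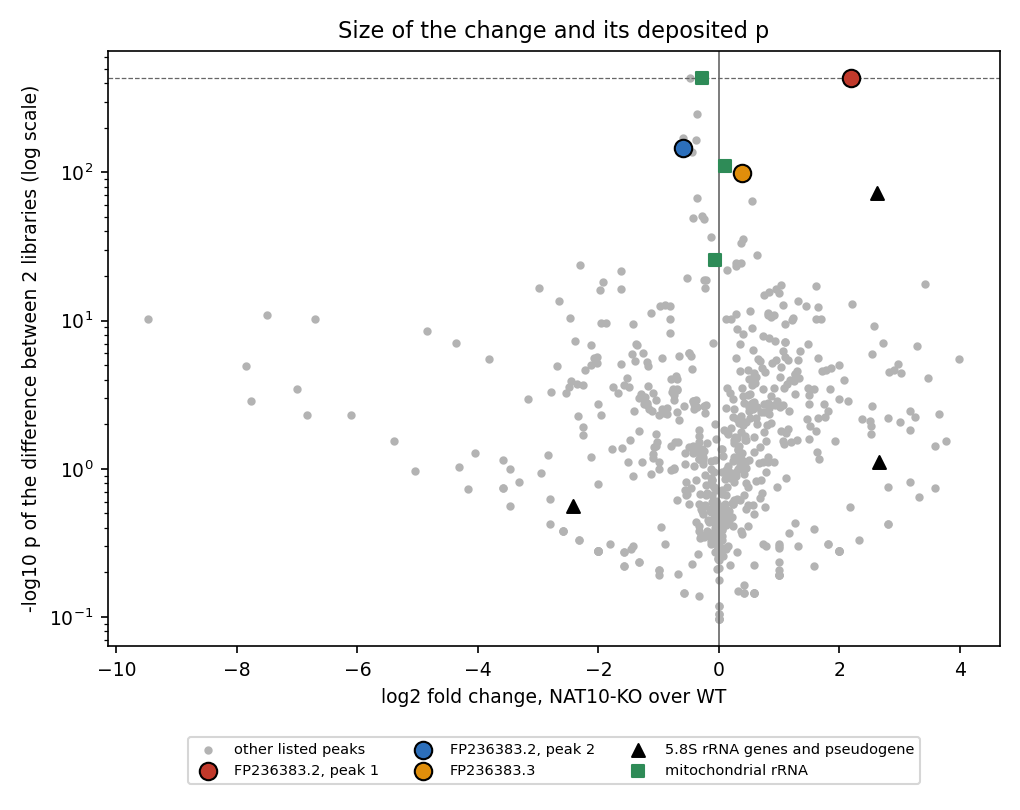
Log2 fold change of NAT10-KO over WT (horizontal) against the deposited -log10 p of the difference between the 2 libraries (vertical, log scale) for all 647 listed peaks, 1 point per peak. The dashed line marks the floor of the p column at a log10 p of -434, where peak 1 of FP236383.2 lies with a log2 fold change of 2.20.

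The peaks most like the members were named by 2 measures, fold enrichment and log2 fold change, and belonged to unrelated RNAs. For peak 1, the nearest was in TMX1, a transmembrane thioredoxin, enriched 4.88-fold over input, with a log2 fold change of 2.17. The log10 p of the difference in TMX1 was -0.553, far from the -434 of peak 1 at a change of nearly the same size. With the reads under each peak unknown, this gap is not read as a better supported change in peak 1. The other near peaks were in EIF4A2, a translation initiation helicase, with a log2 fold change of 2.14, and in TWF1, an actin-binding protein, with 2.0. For peak 2, the nearest was MT-ND6, a mitochondrial subunit of respiratory complex I, enriched 3.81-fold, which had a log2 fold change of -0.60 at a log10 p of the difference of -171. It was followed by PRRC2C at -0.81 and GOLGA4 at -0.70. For the FP236383.3 peak, the nearest were KIF5B, a kinesin motor, with a log2 fold change of 0.42, CLTC, the clathrin heavy chain, with 0.35, and ALDH1A1, a retinal-metabolising aldehyde dehydrogenase, with 0.40.

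By a single measure, the neighbours were as varied. Next above and below peak 1 in log2 fold change were PRDX3 at 2.21 and TMX1 at 2.17, and in fold enrichment MOB1B at 3.90 and GOLGA4 at 3.85. A peak of TKT, the transketolase gene, had the same fold enrichment as peak 1, 3.88, and a log2 fold change of -0.04. MOB1B and GOLGA4 had log2 fold changes of 1.0 and 0.02. Next to peak 2 in fold enrichment were PRRC2C at 4.26 and NCOA7 at 4.08, and their log2 fold changes were -0.81 and 3.25. Next to it in log2 fold change were the lincRNA AL671710.1 at -0.585 and MT-ND6 at -0.596. In fold enrichment the FP236383.3 peak was equal to RPLP1, a large-subunit ribosomal protein gene, at 1.44, and the log2 fold change of RPLP1 was 0.69. Next above were EIF3A and HSPA8, both at 1.45, and next below BAZ1B, MT-ND3 and TOP2A, all at 1.43. In log2 fold change the FP236383.3 peak lay between DCBLD2 (0.384) and CCT4 (0.374). Peaks of close enrichment thus spread widely in their change, from -3.58 to 3.25 among the 28 near peak 1.

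The rest of the precursor carried few peaks. In RNA45SN3, which is 13309 bases long, the listed peaks were the pair in 18S and 1 peak in 5.8S, and there was 0 in 28S or the spacers. In RNA45SN1 the FP236383.3 peak was the only one. The 5.8S peak of the RNA45SN3 copy, listed as RNA5-8SN4 on the plus strand of chromosome 21 from 8395607 to 8395759, had a fold enrichment of 2.43, a log2 fold change of 2.63 and a log10 p of the difference of -72.0. A 5.8S gene of another copy, RNA5-8S5 on a scaffold outside the assembled chromosomes, was enriched 11.2-fold, and its log2 fold change was 2.66 at a log10 p of -1.11. The 5.8S pseudogene RNA5-8SP6 had -2.42 at a log10 p of -0.561. Peak 1 of 18S and both 5.8S genes thus had log2 fold changes from 2.20 to 2.66, whereas peak 2 and the FP236383.3 peak lay between -0.59 and 0.38.

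The 5S rRNA pseudogenes RNA5SP145, RNA5SP225 and RNA5SP259 had log2 fold changes of -0.03, -1.0 and -0.68, with no log10 p of the difference under that of 0.05. The mitochondrial 12S rRNA, MT-RNR1, was enriched 55.2-fold, and its log2 fold change was 0.10. The mitochondrial 16S rRNA, MT-RNR2, had a pair of peaks with fold enrichments of 11.0 and 17.1 and log2 fold changes of -0.28 and -0.07. All 3 mitochondrial rRNA peaks were more enriched than every 18S peak, and their changes were smaller than that of any 18S peak. Over all 20 mitochondrial peaks the median log2 fold change was -0.24, and 1 of them, MT-ND6, lay below peak 2. The other 22 lincRNA peaks reached 1.81 at most, so none lay above peak 1.

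Proteins that build the ribosome were compared as a list. Small-subunit ribosomal proteins, which assemble on 18S rRNA, had 16 peaks on 13 genes with a median log2 fold change of 0.25. Of these, 1 was past 1 (RPSA, 1.07) and 0 past -1. Large-subunit ribosomal proteins had 20 peaks on 17 genes with a median of 0.26, of which 1 was past 1 (RPL22L1, 1.06) and 0 past -1. Over all listed peaks these shares were 17.5% past 1 and 18.7% past -1, and with so few peaks a difference from them was not tested. Of 53 genes for factors that process or modify 18S rRNA, 4 had a listed peak, with 6 peaks in all and 0 past 1 either way. The lowest of them was in NPM1, the nucleolar protein nucleophosmin, at -0.12, and the highest in DDX21, a nucleolar RNA helicase, at 0.82. No snoRNA had a listed peak.

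**Figure D4:**
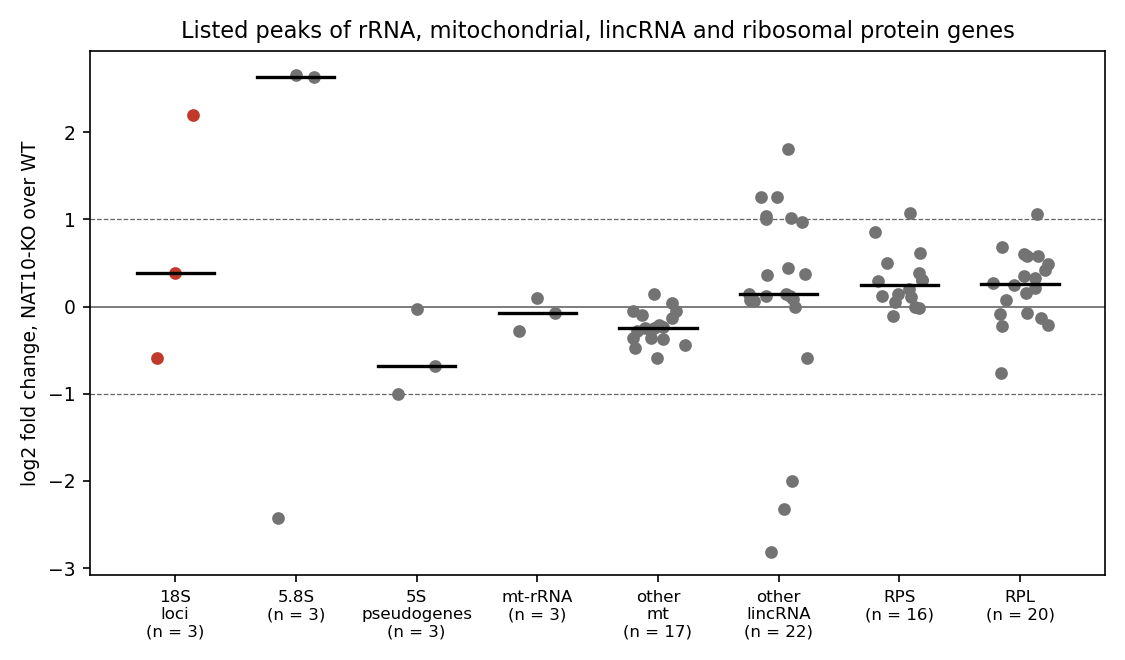
Log2 fold change of NAT10-KO over WT for listed peaks of the 18S loci (red), 5.8S genes and pseudogene, 5S pseudogenes, mitochondrial rRNA, other mitochondrial genes (mt), other lincRNAs, and small-subunit (RPS) and large-subunit (RPL) ribosomal protein genes. Points are peaks, black bars are medians, dashed lines mark -1 and 1, and the 3 peaks of the 18S loci spread from -0.59 to 2.20 around a median of 0.38.

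Facts of the whole table bear on these values. RefSeq lists 5 genes named RNA18SN, 3 of them on chromosome 21, and 11 18S pseudogenes. How reads that fit several copies were placed is not given in the sources used here, and the share of such reads in the 18S peaks was not tested. Of the markers of A549 epithelium, 4 of 13 had a listed peak, with log2 fold changes from -0.72 to 1.23. Of those of smooth muscle and connective tissue, 5 of 10 had one, and all 14 of their peaks lay between -9.47 and -2.0. Of 3 immune markers CD68 had 1 peak, at -1.26. A peak list does not measure expression, and the part of other cells' RNA in the 18S values was not tested.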

How the data were processed

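Total RNA of A549 cells was pulled down with an anti-ac4C antibody, with 1 library for WT and 1 for NAT10-KO, assigned by sample title. The submitters' processing notes name hg38 and STAR 2.7.10a; the peak caller and its version are not given in the sources used here. The authors deposited 1 joint table with, per peak, the p-value of enrichment over input, log10 p and log10 adjusted p as a score, fold enrichment as a ratio, and a log2 fold change between libraries with log10 p and log10 adjusted p. These fold changes are the authors' own, and no column holds a single library. A positive log2 fold change was taken to mean NAT10-KO above WT: each gene on the list of reduced genes in the supplement has a peak below 0. A log10 p of -434 was treated as a floor.

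Starts were read as counted from 0 and printed as counted from 1. Peaks were set against RefSeq genes of GRCh38.p14, whose rRNA strand was inferred from the order 18S, 5.8S, 28S. Percentiles count peaks below a value and 0.5 of those equal to it. With 1 library per condition no test was made, p-values compare 2 libraries, and counts past a log2 fold change of 1 were read against all listed peaks. Depth per library and peak is unknown, so no interval was computed. The members and lists were chosen with earlier results of these data known. Named genes are the peaks of rRNA lists, of each 18S peak the neighbours in enrichment and change and the 3 nearest in both (log2 scale), and of the protein lists those past 1 or, failing that, the extremes. The counting was tested on simulated data. No 18S sequence was used here, and none is printed. Python 3.11.15, numpy 2.4.6, pandas 2.3.3 and matplotlib 3.10.9 were used.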

Additional observations from a re-analysis of the deposited data

How the results depend on the processing

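No replicate spread exists, so any change of a value is given here, and its size cannot be judged against error. With starts read as counted from 1, the peaks began at base 753 (peak 1), base 1229 (peak 2) and base 783 (FP236383.3) of 18S. Without mitochondrial peaks, the percentiles of fold enrichment were 75.4, 77.4 and 10.4 in the same order, and among peaks of genes that are not protein-coding they were 39.2, 42.3 and 8.46, since those peaks had a higher median enrichment (4.55). After subtracting the median of all listed peaks, the log2 fold changes were 2.15, -0.64 and 0.33. With the median of peaks of genes that are not protein-coding they were 2.13, -0.67 and 0.31. With the median of mitochondrial peaks, a shift of -0.24, they were 2.44, -0.35 and 0.62. No sign changed under these 3 settings. Past a log2 fold change of -0.5 in place of -1, 1 peak was lower (peak 2) in place of 0, against 26.6% of all listed peaks. The count of higher peaks was 1 past 0.5, against 30.4% of all listed peaks, and 1 past 1.5, against 10.5%. It was also 1 where the deposited p or adjusted p of the difference had to be under 0.05. The share of all listed peaks is not given for these settings, so that count is not read as a result. None of the peaks overlapped a further 18S gene, so that alternative gave no value. No paired analysis was possible because WT and NAT10-KO were each sequenced once.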
